A study of Mus musculus with 4 samples.

Results

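The genes of mouse chromosome 1 were followed in gene order to see whether a small upward shift in 1 embryonic stem cell line was even along the chromosome, lay in 1 segment or came from a few genes. All single-gene probe sets whose gene lies on chromosome 1 in the RefSeq table were taken, with 1 probe set per gene, the one with the highest mean over the 4 arrays. This gave 1057 of the 18193 genes measured. Of these, 976 are protein-coding. The RefSeq table places 1053 on the chromosome itself and 4 on separate sequences assigned to it, and the 1053 were divided in gene order into 10 bins of 105 or 106 genes. The set was proposed because chromosome 1 genes as a whole were slightly higher in line 3, so all values of line 3 against the other arrays are descriptions and not tests.

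Gene expression was measured on 4 arrays. One held the iPSC clone Adeno-1, 1 clone of induced pluripotent stem cells from tail-tip fibroblasts, labelled Adeno-iPSC. The other 3 held NT-1, NT-2 and NT-3, embryonic stem cell lines from blastocysts cloned by transferring nuclei of that same clone, called line 1, line 2 and line 3 below; the labels name them subclones 1 to 3. All 4 cultures had 15% serum and LIF, grew on irradiated mouse embryonic fibroblasts, and were preplated for 45 minutes to take the fibroblasts away. The labels do not say whether the lines were separate derivations, so the spread between them may be technical, and each culture had 1 array.

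As background, mouse chromosomes are acrocentric, so gene order starts next to the centromere and runs to the distal telomere. Neighbouring genes of a chromosome mostly have unrelated functions and their own promoters. The level of an expressed gene tends to follow the number of gene copies, and mouse embryonic stem cells in culture are known to gain chromosomes. DNA was not measured here. In bulk RNA a difference in every cell and a larger one in some cells cannot be told apart, nor can fewer cells of a type and less RNA per cell.

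Levels below are log2 intensities with the mean of each array set to an assumed 7, and differences are on the same log2 scale and shrink or grow with that choice. A gene is called bright if its mean over the 4 arrays reached 6.83, the median of all probe sets. Of the chromosome 1 genes 653 were bright, 651 of them placed on the chromosome, and 404 were dim. The limit applies to the mean of all 4 arrays, line 3 included. The 8 pluripotency markers were all bright, with a mean level of 12.24 in the clone and of 12.30, 12.31 and 12.31 in lines 1, 2 and 3, which goes with the labelled cell types. The 8 fibroblast and feeder markers had mean levels of 8.07, 8.09, 8.21 and 8.15 in the same order, and 6 of them were bright. Of these 8 genes 2 were highest in line 3. None of 4 leukocyte markers was bright. The means of the 4 primitive endoderm markers ran from 6.56 to 6.76 and those of the 4 trophectoderm markers from 7.07 to 7.24, with line 3 the highest in both. Their part in the results was not tested. For Actb the 3′ probe set exceeded the 5′ one, a sign of RNA quality, by 0.29 in line 3 and by 0.22, 0.28 and 0.42 in the clone, line 1 and line 2.

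The shift of chromosome 1 in line 3 was neither even nor due to a few genes. It lay in 2 stretches, a long one from the centromeric end and a short one at the distal end, with a stretch between them that was not higher. Over all 1057 genes the median of line 3 minus the mean of the other arrays was 0.041, and over the 653 bright genes it was 0.075. Of these bright genes 49.9% had line 3 above all 3 other arrays, against 26.7% of the bright genes of the whole table. On the 17 autosomes other than 1 and 8 the bright-gene medians ran from -0.029 to -0.0079. On chromosome 8, the genes of which were also higher in line 3, the median was 0.27, and on the X chromosome it was -0.061.

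**Figure D1:**
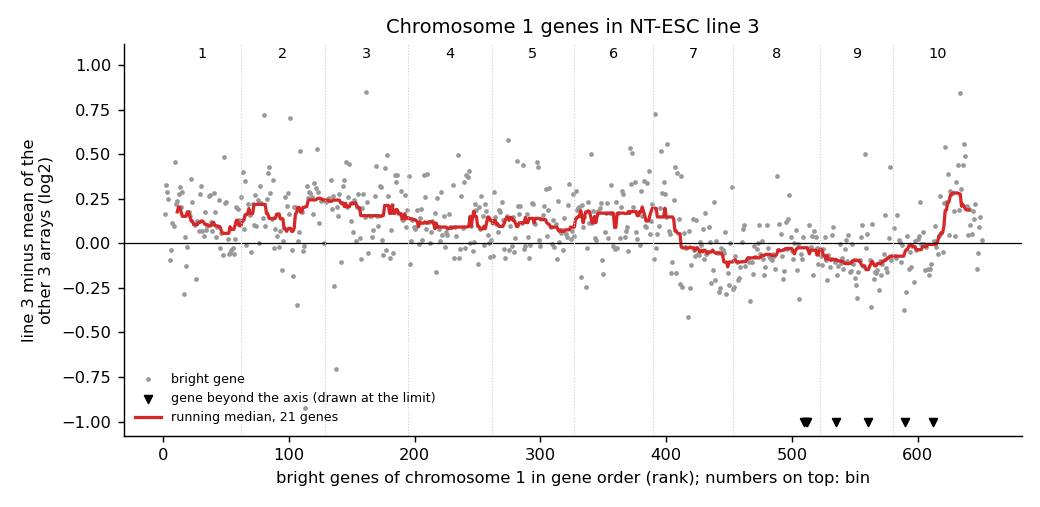
Each grey point is 1 of the 651 bright genes of chromosome 1 in gene order (horizontal axis, rank), and the vertical axis is line 3 minus the mean of the iPSC clone, line 1 and line 2 in log2. The red line is the running median over 21 genes, and dotted lines part the bins. The red line lies above 0 through bins 1 to 6, falls below 0 within bin 7 and is above 0 again at the end of bin 10. Triangles mark genes below -1, drawn at the limit.

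In the first 6 bins the bright-gene median lay between 0.092 and 0.21. It was greatest in bin 3, from Plcl1 to Pnkd, and in bin 2, from Neurl3 to Boll, at 0.20. It was smallest in bin 4, from Tmbim1 to Chrnd. Each of the 6 lay above the highest of the 170 bins of the 17 other autosomes, which ran from -0.087 to 0.036. In bin 7, from Optc to Gm38440, the median was -0.015. In bin 8, from Glul to 3110045C21Rik, it was -0.062, and in bin 9, from Ddr2 to Cdc42bpa, it was -0.099. By the chosen probe sets bin 9 lay below the lowest of those 170 bins. Its 30 bright probe sets that were not chosen had a median of -0.046, which was not below it. Such probe sets had a median of 0.030 in bin 7 and of -0.057 in bin 8. Bin 10, from Coq8a to Cr2, had a median of 0.044, above the highest of those 170 bins. Narrow bins 19 and 20, which make up bin 10 and are described below, had medians of -0.019 and 0.19. The bright genes of the 17 other autosomes together had a median of -0.018.

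Against each array alone, line 3 was higher in bins 1 to 6 and 10 and lower in bins 8 and 9, while bin 7 stood at -0.018 against the clone, at 0.0025 against line 1 and at 0.013 against line 2. In bin 3 line 3 differed by 0.20 from the clone, by 0.20 from line 1 and by 0.18 from line 2, and in bin 9 by -0.10, -0.099 and -0.095. The 3 values of a bin share line 3 and are not independent. The spread between the arrays was widest in bin 6, from Serpinb2 to Atp2b4, with 0.17, 0.099 and 0.17. Among the 3 arrays without line 3, no bin median of 1 array against the other pair went past 0.067 in size, a value also found in bin 6, where the clone was the lower.

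**Figure D2:**
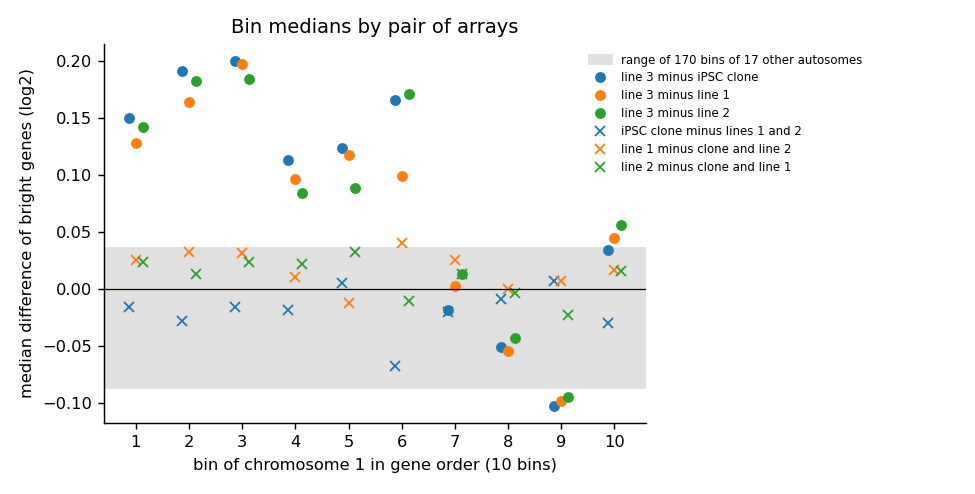
Median difference of bright genes (vertical axis, log2) in each bin of chromosome 1 (horizontal axis). Dots are line 3 minus the clone, line 1 or line 2; crosses are each of those 3 arrays minus the mean of the other pair. The grey band is the range from -0.087 to 0.036 of line 3 minus the mean of the other arrays over the 170 bins of 17 other autosomes. The dots of bins 1 to 6 lie above the band and those of bin 9 below it.

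In 20 narrow bins of 52 or 53 genes the chromosome showed where the values turned. Narrow bins 1 to 13 had medians from 0.064 to 0.23, narrow bins 14 to 19 from -0.10 to -0.019, and narrow bin 20 had 0.19. Bright probe sets that were not chosen had medians of 0.016 in narrow bin 14 and 0.014 in narrow bin 18. In narrow bins 15, 16, 17 and 19 their medians ran from -0.080 to -0.044. In narrow bin 5, from Plcl1 to Adam23, 27 of 34 bright genes were highest in line 3 and 4 lowest. In narrow bin 17, from Ddr2 to Kcnj10, 1 of 32 was highest and 18 were lowest. In narrow bin 20, from A430105J06Rik to Cr2, 26 of 33 were highest and 2 lowest. Over the 340 narrow bins of the 17 other autosomes, which hold from 5 to 63 bright genes, the medians ran from -0.21 to 0.080. The medians of 13 of the 20 narrow bins of chromosome 1 were above that range and none was below it. The 26 consecutive bright genes from Gpatch2 to A130010J15Rik were all above 0, and within them the 19 from Gpatch2 to Slc30a1 were all highest in line 3. These were the longest such runs on the chromosome. The longest run of genes lowest in line 3 was of 9, from Opn3 to Hnrnpu in bin 9.

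**Figure D3:**
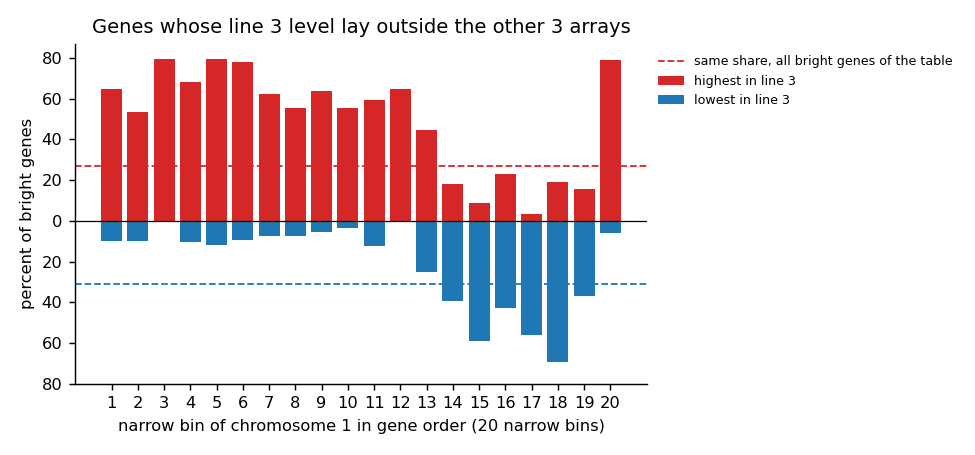
Percent of bright genes (vertical axis) in each of 20 narrow bins of chromosome 1 (horizontal axis) that were highest in line 3 (red, upward) or lowest in line 3 (blue, downward) of the 4 arrays. Dashed lines give the same shares over all bright genes of the table, 26.7% and 31.1%. Red bars stand above their line in narrow bins 1 to 13 and in narrow bin 20.

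The stretches were then bounded by the sign of the running median over 21 bright genes, a rule chosen after these values were seen. The proximal stretch ran from Xkr4 to Csrp1 and held 663 genes, 63.0% of those placed. The middle stretch ran from Phlda3 to Eprs with 333 genes, and the distal stretch from Slc30a10 to Cr2 with 57. With windows of 31 and 41 genes the middle stretch began at Tmem9 and at Inava and ended at Mtarc2 and at Taf1a. With a window of 11 the median first reached 0 at Zfp451, much nearer to the centromere, so the first bound depends on the window. Csrp1 stood at 9.36, 9.81 and 9.65 in the clone, line 1 and line 2 and at 9.38 in line 3, while its neighbour in order Phlda3 was highest in line 3.

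In the proximal stretch 269 of 411 bright genes (65.5%) were highest in line 3 and 31 (7.54%) lowest. Their median difference was 0.15, the lower quartile was 0.034 and the upper quartile 0.25. Both quartiles lay above those of the 17 other autosomes, which were -0.097 and 0.053. Without the 10 genes with the largest differences at each end the mean of the proximal stretch was 0.15, as it was with them. In the distal stretch 27 of 36 bright genes were highest, with a median of 0.19. The distal mean was 0.21, and 0.11 without the 10 highest of its 36 genes, which in so short a stretch are a large share. In the middle stretch 29 of 204 (14.2%) were highest and 103 (50.5%) lowest, against 31.1% lowest over all bright genes, and the median was -0.066. On the 17 other autosomes 33.0% were lowest and the median was -0.018, so 0 is not their middle. With the median offset at each level removed, the median of the middle stretch was -0.047. The middle mean was -0.094, and -0.065 without 10 genes at each end, so the large single differences described below made up part of the mean.

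Probe sets that the gene rule had not used gave the same order on the same arrays. The 317 bright ones in the proximal stretch had a median of 0.15, the 155 in the middle stretch -0.035 and the 29 in the distal stretch 0.29. They share RNA and arrays with those chosen and are not independent of them.

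In the proximal and distal stretches the differences were larger for genes of higher level. In the proximal stretch the median was 0.014 for 147 genes under level 6, 0.047 for 258 genes from 6 to 8, 0.17 for 178 from 8 to 10 and 0.23 for 80 at 10 or more. Of those 80, 90% were highest in line 3. On chromosome 8 the corresponding medians were 0.0090, 0.073, 0.30 and 0.37. On the 17 other autosomes no level class had a median beyond -0.026 in size. The distal stretch had 0.26 over 14 genes from 8 to 10 and too few brighter genes to read. In the middle stretch the median was -0.093 for 97 genes from 8 to 10 and -0.021 for 33 brighter ones.

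**Figure D4:**
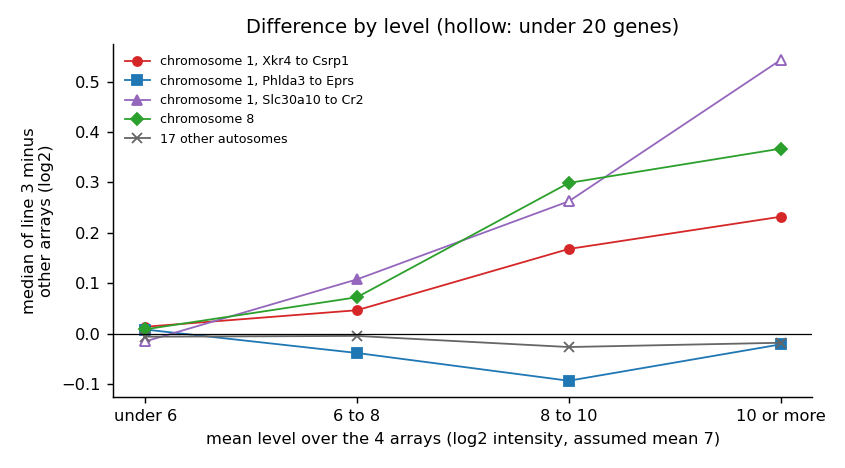
Median of line 3 minus the other arrays (vertical axis, log2) by class of mean level (horizontal axis) for the 3 stretches of chromosome 1, chromosome 8 and the 17 other autosomes. Hollow symbols have under 20 genes; the distal stretch has 3 genes in the top class. The proximal stretch goes from 0.014 to 0.23, while the other autosomes stay near 0.

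Bright genes with few CpG in the promoter were an exception in the proximal stretch. Promoters were counted for CG, the same on both strands, in the 250 bases before the gene start in the RefSeq table (GRCm38.p6), taking the window with most CG of each gene; 888 of the 1057 genes had one. Of 31 bright proximal genes with 0 to 4 CpG, 22.6% were highest in line 3, and of 201 with 15 or more, 71.6%. The medians were -0.000041 and 0.17. The first class was also dimmer, with a median level of 7.44 against 8.81, and only 4 of its genes reached level 8. Of the 888 genes, 23.0% hold 0 to 4 CpG and 43.8% hold 15 or more. Over all promoter windows in RefSeq's list the shares were 44.4% and 27.3%. These windows were not reduced to 1 per gene, so the shares are not like measures. Gene length showed no such gap, with proximal medians of 0.14, 0.18 and 0.13 for short, middling and long genes in classes of like size over all bright chromosome 1 genes.

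Single genes that stood far from the other arrays were few beside these stretches. The limma fit called 4 chromosome 1 genes higher and 7 lower in line 3 (Benjamini-Hochberg adjusted p under 0.05), while 0.159% of all genes were called higher and 0.302% lower. When any 1 of the other 3 arrays was left out, none was called, with 1 residual degree of freedom, and at unadjusted p under 0.05 from 112 to 158 of the 1057 were higher and from 28 to 45 lower, where from 785 to 1011 and from 590 to 1152 of all 18193 genes were. Of the 4 called higher, 3 lay in the proximal stretch and 1 in the distal, and of the 7 called lower, 5 lay in the middle stretch.

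The genes called higher have unrelated known functions. Ppp2r5a, a regulatory subunit of protein phosphatase 2A in the distal stretch, stood at 10.21 in the clone, 10.49 in line 1, 10.38 in line 2 and 11.21 in line 3, a difference of 0.85 (standard error 0.12). Btg2, an antiproliferative p53 target, stood at 9.22, 9.29, 9.42 and 10.04 in the same order, a difference of 0.73 (standard error 0.10), and its second bright probe set differed by 0.76. Rgs20, a regulator of G protein signalling, stood at 6.55, 6.59, 6.64 and 7.30; its mean of 6.77 makes it a dim gene. In each of them line 3 lay well outside the narrow range of the other arrays. Ube2t, the ubiquitin-conjugating enzyme of the Fanconi anaemia pathway, stood at 10.09, 10.14, 10.16 and 10.69, and its second probe set differed by only 0.15. Averaged over their probe sets, Rgs20 and Ube2t were not called.

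Several of the larger differences were not called. Zdbf2, a paternally expressed imprinted gene, stood at 8.21 in the clone, 8.94 in line 1, 9.01 in line 2 and 9.57 in line 3, so the clone was apart from every line. Rev1, a polymerase that copies past damaged bases, stood at 8.93, 9.23, 9.26 and 9.86. Ercc5, the XPG nuclease of nucleotide excision repair, stood at 8.22, 8.45, 8.56 and 9.12. In all 3 genes the clone was the lowest array and line 3 the highest. Further along, the largest differences by bin included 0.49 for Rab23, 0.50 for Acadl, 0.50 for Acsl3, 0.58 for Agap1, 0.51 for Rab29 and 0.56 for Lpgat1, the 3 other bright probe sets of which ran from 0.53 to 0.78. The 2 other bright probe sets of Agap1 differed by only 0.23 and 0.28, and those of Rab23 by 0.43 and 0.54. In the middle stretch some genes were highest in line 3 all the same. Among them were Tagln2 at 0.50, Sccpdh at 0.43, Vamp4 at 0.38 and Slc19a2 at 0.27. The other bright probe set of Sccpdh differed by only 0.11 and that of Vamp4 by 0.15. That of Tagln2 differed by 0.36 and the 2 of Slc19a2 by 0.34 and 0.37.

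**Figure D5:**
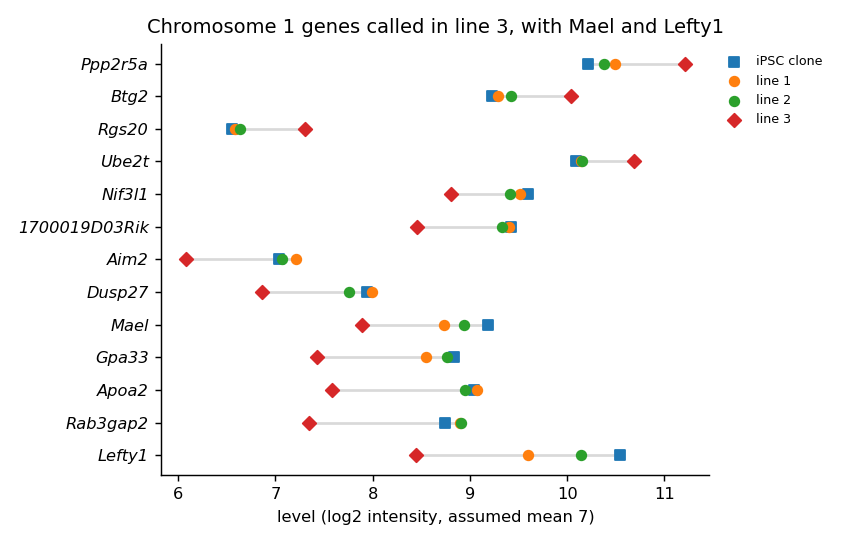
Level on each of the 4 arrays (horizontal axis, log2 intensity with an assumed mean of 7) for the 11 chromosome 1 genes called in line 3, with Mael and Lefty1, ordered by their difference. Blue squares are the iPSC clone, orange and green circles lines 1 and 2, red diamonds line 3. Line 3 lies outside the range of the other arrays for each gene, from 1.65 lower than their mean for Lefty1 to 0.85 higher for Ppp2r5a.

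The largest single differences on the chromosome were downward, in the middle stretch. At least 2-fold below every other array in line 3 were Lefty1, Rab3gap2, Apoa2 and Gpa33, while 0.121% of all genes of the table met that limit. None was 2-fold above, while 0.0055% of all genes were. The 2-fold limit was applied to levels with the assumed mean of 7, so which genes met it depends on that choice. Apoa2, an apolipoprotein of high-density lipoprotein, stood at 9.05, 9.08 and 8.95 in the clone, line 1 and line 2 and at 7.58 in line 3, a difference of -1.44 (standard error 0.088). Rab3gap2, the noncatalytic subunit of a Rab3 regulator, stood at 8.74, 8.90, 8.91 and 7.34, a difference of -1.51 (standard error 0.096). Both fell. Aim2, a sensor of cytosolic DNA, stood at 7.04, 7.22, 7.07 and 6.09 and was called. In the proximal stretch 1700019D03Rik stood at 9.42, 9.40, 9.33 and 8.46 and Nif3l1 at 9.60, 9.52, 9.41 and 8.81. Both were called lower, and the second probe set of each was lower too, by -1.04 and -0.56. The bright genes before and after 1700019D03Rik, Hibch and Pms1, differed by -0.016 and 0.32. Those before and after Nif3l1, Ppil3 and Orc2, differed by -0.24 and 0.20.

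Dusp27, Gpa33 and Mael follow each other in the order of measured genes and were all lowest in line 3. Dusp27 encodes an inactive phosphatase of muscle, Gpa33 a surface antigen of intestinal epithelium, and Mael a protein of the germ line piRNA pathway. Dusp27 stood at 7.94, 8.0 and 7.76 in the clone, line 1 and line 2 and at 6.86 in line 3. Gpa33 stood at 8.84, 8.55, 8.77 and 7.42. Mael stood at 9.19, 8.74, 8.94 and 7.89. Line 3 was below the other arrays in each, and Dusp27 and Gpa33 were called but Mael was not; Mael was called after centring, quantile normalization, averaging of probe sets or testing bright genes alone. The measured neighbours on either side did not share differences of this size: the dim Cd247 differed by -0.034 and Ildr2 by -0.024. Line 3 was nonetheless the lowest array for Ildr2 too. The promoters of the 3 genes are shown because these neighbours were lowest in line 3 together; capitals mark CG. They are the 250 bases before each start, from RefSeq (GRCm38.p6): chr1:166127899-166128148 on the minus strand for Dusp27, chr1:166129971-166130220 on the plus strand for Gpa33 and chr1:166238745-166238994 on the minus strand for Mael.
Dusp27: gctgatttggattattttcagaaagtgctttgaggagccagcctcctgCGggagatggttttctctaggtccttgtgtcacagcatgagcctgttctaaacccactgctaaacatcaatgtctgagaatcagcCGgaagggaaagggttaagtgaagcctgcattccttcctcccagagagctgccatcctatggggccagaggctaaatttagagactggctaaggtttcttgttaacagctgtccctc
Gpa33: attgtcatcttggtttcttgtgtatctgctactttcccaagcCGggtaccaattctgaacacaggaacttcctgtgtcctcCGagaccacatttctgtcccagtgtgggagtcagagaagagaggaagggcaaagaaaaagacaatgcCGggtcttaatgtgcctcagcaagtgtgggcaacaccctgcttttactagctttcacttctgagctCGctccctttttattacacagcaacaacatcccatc
Mael: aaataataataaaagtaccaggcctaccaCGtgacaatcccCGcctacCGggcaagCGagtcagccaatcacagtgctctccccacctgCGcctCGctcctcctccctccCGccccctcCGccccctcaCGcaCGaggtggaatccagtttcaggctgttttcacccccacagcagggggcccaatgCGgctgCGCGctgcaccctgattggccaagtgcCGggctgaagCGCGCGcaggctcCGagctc
These windows hold 2, 4 and 18 CG. By the classes used above, Dusp27 and Gpa33 fall in that of 0 to 4 and Mael in that of 15 or more. Dusp27 and Gpa33 start back to back on opposite strands.

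The members of 7 functional lists, drawn up with earlier results of these data known, are described by stretch. Their counts stand beside 26.7% highest and 31.1% lowest in line 3 over all bright genes of the table, 65.5% highest over the proximal stretch and 14.2% over the middle stretch, and none is called particular to its list. Of 17 bright genes of translation, ribosome assembly and chaperones, 14 lay in the proximal stretch, where 13 were highest in line 3 with a median of 0.18. Nearly all of the 14 had a level of 10 or more. Of all proximal genes at that level 90% were highest, with a median of 0.23. Hspd1, the mitochondrial chaperonin, stood at 13.07, 12.96, 13.02 and 13.25 in the clone and lines 1, 2 and 3, and Hspe1, its partner, at 12.45, 12.53, 12.48 and 12.73. Nop58, a core protein of box C/D small nucleolar ribonucleoproteins, stood at 10.90, 10.77, 10.72 and 11.06. All differences were small, and no gene of the list was called. In the middle stretch the 3 bright members of the list had a median of 0.011.

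Of 17 bright mitochondrial and metabolic genes, all 8 of the proximal stretch were highest in line 3, with a median of 0.25, and 3 of 9 in the middle stretch, with a median of 0.034. The complex I subunits Ndufs1 and Ndufb3 differed by 0.28 and 0.28; Ndufs1 stood at 9.96, 9.97, 9.96 and 10.24. Idh1, cytosolic isocitrate dehydrogenase, stood at 10.18, 10.43, 10.47 and 10.68. In the middle stretch Glul, glutamine synthetase, stood at 10.17, 10.46, 10.21 and 10.04, the lowest in line 3. No gene of this list was called.

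Of 17 bright genes of replication, repair and mitosis 13 were highest in line 3, and Ube2t was the 1 called. In the proximal stretch 8 of 9 were highest, with a median of 0.32. The 3 distal members were Cenpf, a kinetochore protein, at 10.61, 10.80, 10.91 and 11.32, Nek2, a centrosomal kinase, at 9.75, 9.92, 9.93 and 10.36, and Dtl, a ubiquitin ligase adaptor of S phase, at 9.51, 9.70, 9.68 and 9.93. Line 3 was above every other array in each of them. In the middle stretch 2 of 5 were highest and 3 lowest, among them the exonuclease Exo1, with a difference of -0.16. All 9 p53 targets and stress genes were bright, and 7 were highest in line 3, with a median of 0.34. All 5 in the proximal stretch were among these. The other 2, both in the middle stretch, were lowest in line 3: the stress-induced Ier5 differed by -0.069 and Ptgs2, a prostaglandin synthase gene, by -0.22. Phlda3 in the middle stretch stood at 9.93, 10.15, 10.10 and 10.44 and Atf3 in the distal stretch at 8.32, 8.34, 8.26 and 8.65.

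Of the 14 bright pluripotency and early embryo regulators 5 were highest and 5 lowest in line 3, and none was called. The receptor genes Fzd5 and Bmpr2 of the proximal stretch differed by 0.44 and 0.44, but the other bright probe set of Bmpr2 differed by only 0.033. Tfcp2l1, a factor of naive pluripotency, stood at 10.11, 10.84, 10.68 and 10.75 in the usual order, so that line 3 lay among the lines; without the clone its difference was -0.012. Prdm14, a regulator of the naive state and germ cells, stood at 8.67, 8.97, 9.03 and 8.76. Neither of them was highest in line 3, although both lie in the proximal stretch. Nr5a2, a nuclear receptor gene, differed by 0.13 by its chosen probe set and by -0.14 as the mean of its probe sets. Lefty1 and Lefty2, neighbouring inhibitors of Nodal in the middle stretch, were both lowest in line 3: Lefty1 stood at 10.54, 9.60, 10.14 and 8.45 and Lefty2 at 7.63, 7.47, 7.62 and 7.20. Lefty1 also differed widely between the other arrays.

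Of 11 bright matrix and fibroblast genes, 8 lay in the proximal stretch; 2 of these were highest in line 3, and their median was -0.043. Igfbp2, which binds insulin-like growth factors, stood at 12.37, 12.28, 12.50 and 12.68, while the collagen genes Col3a1 and Col5a2 differed by -0.038 and -0.18, with line 2 the highest in both. Of the 24 measured leukocyte genes only 6 were bright, with a median of 0.052. No gene of these 2 lists was called.

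Between the arrays other than line 3 the chromosome 1 differences were small. Lines 1 and 2 were set against the clone by limma, a comparison that the choice of this chromosome did not use, with 1 residual degree of freedom and the lone clone array taken to vary like the lines. No chromosome 1 gene was called (smallest Benjamini-Hochberg adjusted p = 0.609), and 0% of all genes were. At an unadjusted p under 0.05, 62 chromosome 1 genes were higher and 39 lower, of 1057, against 929 and 498 of all 18193. The median difference of the bright genes was 0.016, and 0.022 on the 17 other autosomes. By bin it ran from -0.0075 to 0.067.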

How the data were processed

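Messenger RNA of 4 cultures was measured on Affymetrix mouse arrays, 1 array each. The members and gene lists were chosen with earlier results of these data known. The deposited values are on a log2 scale: on every array 2 raised to the value averages 1, as if log intensities had been divided by the mean of their array before a second log2 was taken. The software of normalization is not given in the sources used here. Each value was turned into a level as 7 times 2 raised to the value, where 7 is an assumed mean log2 intensity; levels and differences scale with it, while limma's p-values do not. Rounding to 0.001 limits a level to steps far below the larger differences discussed, but not below the smallest ones.

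Of 45101 probe sets 64 were controls, 34945 had 1 gene in the platform annotation, 932 several and 9160 none. Gene IDs of 34741 were found in the RefSeq table (GRCm38.p6), which gave symbols, chromosomes and order; a build is not named in the deposited files, and the only coordinates are those of RefSeq's promoters. Two-sided moderated tests came from limma 3.58.1 (R 4.3.3), with p-values adjusted by Benjamini-Hochberg over all 18193 genes, for line 3 against the other arrays (2 residual degrees of freedom) and lines 1 and 2 against the clone, and were tested on simulated data. Precision is limited by the 4 arrays. Named genes were, on chromosome 1, the 10 largest differences each way outside the range of the other arrays, the 2 largest higher and the 1 largest lower of each bin, called genes, the 4 members of each list furthest from the other arrays at most, and 6 fixed genes; neighbours, boundary genes and other list members were chosen after their values were seen. The alternatives were another assumed mean, another probe set rule, quantile normalization, centring, an offset by level, other brightness limits and parts, and leaving out each array.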

Additional observations from a re-analysis of the deposited data

How the results depend on the processing

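The stretches were bounded after the data were seen, by the sign of the running median of line 3 minus the other arrays. Their medians kept their sign in the 9 alternatives run for each, which is therefore not a test. The proximal medians ran from 0.136 to 0.195, the middle ones from -0.0674 to -0.0346 and the distal ones from 0.185 to 0.294. With an assumed mean of 6 in place of 7, the median of line 3 minus the other arrays was 0.0641 over bright genes, 0.176 in the highest bin and -0.0852 in the lowest. With the mean of all probe sets of a gene the highest and lowest bins had 0.222 and -0.0886, and 9 genes were called higher. With arrays centred on genes outside chromosomes 1, 8 and X, the median was 0.0669 over all genes and 0.101 over bright genes, 54.7% of bright genes were highest in line 3, and the extreme bins had 0.232 and -0.0732. With the median offset at each level removed, these were 0.0913 over bright genes, 0.231 and -0.0831. Probe sets not chosen had 0.088, 0.224 and -0.068. Genes of level 8 or more had a median of 0.119, 57.3% highest and 0.237 in the highest bin. The median over all genes became 0.0748 when dim genes were left out. The highest and lowest parts had 0.166 and -0.037 with 5 parts, the highest had 0.231 with 20 narrow bins, and the lowest had -0.0678 with bins of equal length. Without one of the other 3 arrays, the share highest ran from 53.1% to 57.6%, the highest bin from 0.189 to 0.21 and the lowest from -0.106 to -0.0976, and 0 genes were called in either direction. On the deposited log2 ratios 0 were called higher and 2 lower, Apoa2 and Rab3gap2. Lines 1 and 2 minus the clone had a bright-gene median of 0.0127 with the mean of probe sets, of -0.0101 after quantile normalization and of 0.0395 with line 3 included; without line 1 or line 2 it ran from 0.0164 to 0.0166, with no residual degree of freedom and so no test. Of the named genes' alternatives 3 changed sign: with the mean of probe sets Epb41l5 differed by 0.0639 and Nr5a2 by -0.138, and without the clone Tfcp2l1 differed by -0.0115 (0.355 without line 1). The cause of these changes was not tested. No paired analysis was possible because the clone had only 1 array. Each culture had 1 array, so no value separates a line from its culture or array, and dim probe sets compress differences.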
